A study of Homo sapiens with 12 samples.

Results

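Gene expression with MSX1 carrying serine in place of one arginine (R157S) was compared with expression with MSX1 carrying lysine there (R157K). The libraries were chosen by their labels, 3 with the R157S plasmid and 3 with the R157K plasmid, so that 6 of the 12 libraries of the series enter the comparison. The cells were HEPM, a line grown from the mesenchyme of a human embryonic palate; they had been transfected with a plasmid for MSX1 and were taken for poly(A) RNA sequencing 6 h later. The other libraries, 3 with R157F (phenylalanine) and 3 with wild-type MSX1 (WT), were used only for the estimate of spread and as levels. All 12 libraries thus carry an MSX1 plasmid, cells without one were not analysed here, and the endogenous MSX1 gene is present in every group. Separate cultures are not stated for the libraries of a group, and p-values cover only the spread between these samples, part or all of which could be technical. The label of the cell line was checked against its defining markers: all 13 markers of palatal mesenchyme and fibroblasts were measured, with VIM at 8783, 8389 and 8633 TPM with R157S, against 7919, 6305 and 7442 TPM with R157K. Of the markers of other cell types, 3 of 10 epithelial, 2 of 7 endothelial, 2 of 10 immune, 1 of 10 neural and 4 of 10 muscle genes passed the filter on low values.

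MSX1 is a homeobox transcription factor that is needed for the growth of palatal mesenchyme and of teeth, where it acts together with BMP signalling. PRMT1 is the main enzyme that places asymmetric dimethyl marks on arginine, and the series title names its action on MSX1 and the condensation of the methylated protein. Neither substitute is the residue that arginine methyltransferases modify: lysine keeps the positive charge of arginine, while serine is small, polar and uncharged. The comparison therefore sets an uncharged substitute against a charged one at the same residue. The stretch below is shown because it holds the codon that the plasmids change. It is read from the GENCODE 29 reference transcript of MSX1 on chromosome 4, 5′ to 3′, with the codon of the changed arginine in capitals, in a coding part for 303 residues.
MSX1 coding stretch: ccgccgccggccAGGcggctgagcccc

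The targeted gene was checked first. MSX1 transcript, from plasmid and endogenous gene together, was at 642, 386 and 326 TPM with R157S, against 563, 333 and 604 TPM with R157K. The groups overlapped, and the difference was within the spread (log2 -0.16, SE 0.32, limma adjusted p = 0.694; exact two-sided permutation p = 0.9). It was 0.041 without R157S replicate 3 and -0.55 after the median-ratio scaling described below (adjusted p = 0.19). PRMT1 was at 138, 138 and 136 TPM with R157S, against 205, 179 and 192 TPM with R157K. Every R157S library was below every R157K library, while 61.3% of all tested genes had no overlap in either direction. PRMT1 was lower with R157S (log2 -0.48, SE 0.15, adjusted p = 0.0195; exact two-sided permutation p = 0.1, the smallest that 3 libraries against 3 allow). The limma call was lost without R157S replicate 3 (adjusted p = 0.0512), without R157K replicate 1 (adjusted p = 0.065) and with no filter on low values (adjusted p = 0.0541). The difference was -0.86 after median-ratio scaling (adjusted p = 0.00139) and -0.28 with GC and length trends removed (adjusted p = 0.00809), the settings described below. PRMT1 averaged 182 ± 8.85 TPM with R157F and 107 ± 27.0 TPM with WT (SD, n = 3 each).

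**Figure D1:**
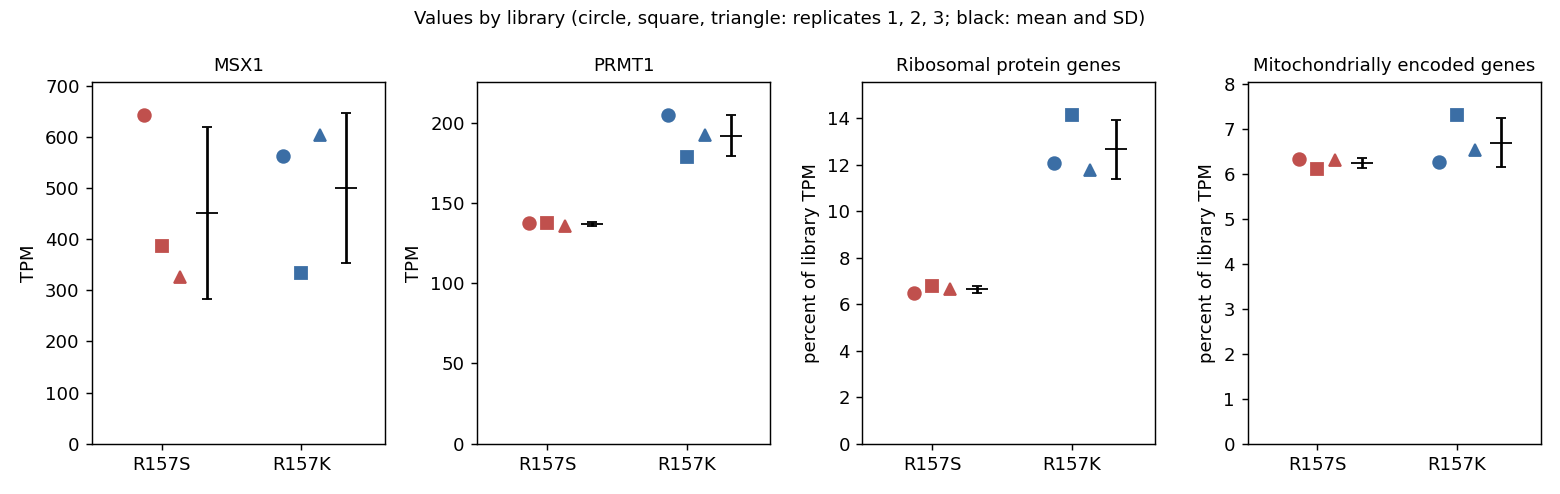
MSX1 and PRMT1 in TPM and the shares of library TPM taken by cytosolic ribosomal protein genes and mitochondrially encoded genes (y axes), for the R157S and the R157K libraries (x axes). Symbols are replicates and black bars the mean and SD of 3 libraries. MSX1 overlaps between the groups, PRMT1 and the ribosomal protein share do not.

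The R157S libraries had 13906 to 14014 genes at 1 TPM or more, and the R157K libraries 13541 to 13727. Of 63241 listed genes, 14718 had at least 1 TPM in at least 3 of the 12 libraries and were tested on the log2(TPM + 1) scale with limma. Calls were made for 50.1% of genes, and 61.3% had no overlap between the 3 and 3 libraries, so a lack of overlap was common. With R157S, 6209 genes (42.2% of those tested) were higher and 1162 (7.9%) were lower at a Benjamini-Hochberg adjusted p under 0.05. The whole distribution was shifted, with a median change of 0.33 and quartiles of -0.019 and 0.63. When libraries were scaled by the median of gene ratios, which moved that median by -0.32, the split was 2251 higher (15.3%) and 2575 lower (17.5%). Of these calls 46.6% were higher in place of 84.2%. The scale factors were 0.836, 0.78 and 0.873 with R157K, against 1.09, 1.09 and 1.06 with R157S. They were 1.01 to 1.04 with R157F and 1.09 to 1.12 with WT, so the R157K libraries were the ones apart. Higher or lower with R157S means relative to R157K throughout, and does not say which group moved. Counts and directions below come from the TPM as deposited unless another setting is named, and "in both fits" marks genes also called after this scaling, 2251 higher (15.3%) and 1161 lower (7.89%). No gene was called in opposite directions by these 2 fits, which hold the same values under another scaling and are not independent. A relative change is the log2 difference minus the all-gene median, and a change is the log2 difference itself.

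Beside this shift, ribosomal protein genes took 6.64% ± 0.144 of library TPM with R157S and 12.7% ± 1.28 with R157K (SD, n = 3 each; exact two-sided permutation p = 0.1). The ribosomal protein share averaged 7.85% ± 0.193 with R157F and 5.57% ± 0.877 with WT (SD, n = 3 each). The 50 most abundant genes of each library took 20.8% ± 0.232 with R157S and 27.5% ± 1.18 with R157K (n = 3 each). They took 21.9% ± 0.328 with R157F and 20.6% ± 0.589 with WT. TPM are shares of a fixed total, and values of different genes in a library are therefore tied to each other. Fewer cells of a kind and less RNA per cell cannot be told apart in these bulk samples.

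**Figure D2:**
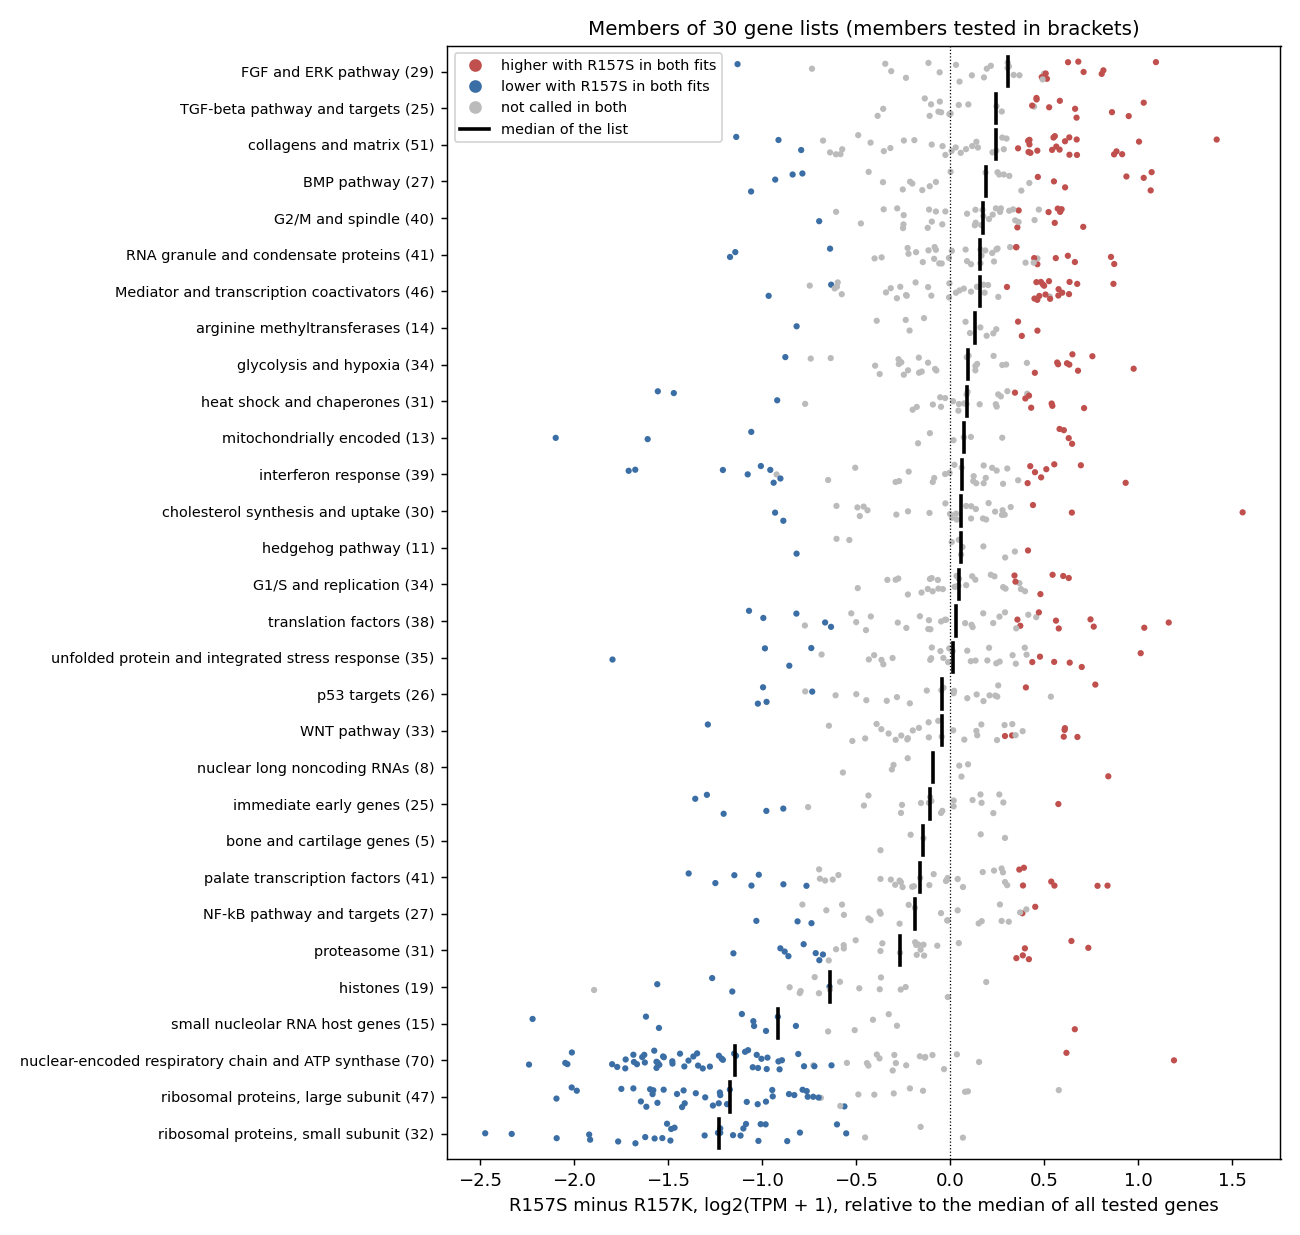
Relative change of each tested member (x axis, log2 difference R157S minus R157K less the all-gene median) in 30 gene lists (y axis, members tested in brackets), with the list median as a black line. The 2 ribosomal protein lists, the respiratory chain, the small nucleolar RNA host genes and the histones have the lowest medians, from -1.23 to -0.64.

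Ribosomal protein genes, which encode the protein part of the cytosolic ribosome, were lower with R157S nearly throughout. Of 32 small subunit genes, 29 were called lower (90.6%, beside 7.9% of all genes) and 1 higher (2 without R157K replicate 2). Their median relative change was -1.23. Of 47 large subunit genes, 37 were called lower (78.7%) and 3 higher, with a median of -1.17, beside 0 for all genes by construction. These genes have many processed pseudogenes with which reads may be shared, so single values are uncertain. RPS29 was at 1310.0, 1094 and 991 TPM with R157S, against 4866, 5741 and 4338 TPM with R157K. RPS21 was at 653, 472 and 431 TPM with R157S, against 1856, 2305 and 1988 TPM with R157K. Every R157S library lay far below every R157K library for both genes. They were lower by the largest amounts of the small subunit (RPS29 log2 -2.14, SE 0.21, adjusted p = 1.63e-05; RPS21 log2 -1.997, SE 0.17, adjusted p = 7.88e-06). In the large subunit, RPLP2, an acidic stalk protein, was at 646, 648 and 678 TPM with R157S, against 1574, 1716 and 1399 TPM with R157K, and RPL34 at 388, 403 and 412 TPM with R157S, against 877, 1187 and 944 TPM with R157K. Their changes were -1.24 (adjusted p = 6.47e-06) and -1.31 (adjusted p = 7.83e-06), and neither gene's groups overlapped.

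The size of the difference went with the length of the gene. Among the 79 genes the change had a Spearman rho of 0.684 with coding length, a description over genes of the same libraries. In the tercile with the shortest coding parts, 25 of 26 genes were called lower, with a median change of -1.23. In the middle tercile it was 24 of 26 with a median of -1.05, and in the tercile with the longest 17 of 27 with a median of -0.39. RPL41, with the shortest coding part of the set, averaged 2677 ± 52.01 TPM with R157S and 6537 ± 806 TPM with R157K (SD, n = 3 each), a change of -1.28 (adjusted p = 2.85e-05). RPL3, among the longest, averaged 1044 ± 24.3 TPM with R157S and 1161 ± 54.05 TPM with R157K and did not pass (-0.15 (adjusted p = 0.267)). RPL4, the longest, was at 1729, 1878 and 1879 TPM with R157S, against 1299, 1439 and 1336 TPM with R157K. It was called higher (0.43 (adjusted p = 0.00179)), as were RPL32 (0.91 (adjusted p = 0.00136)), RPL15 (0.41 (adjusted p = 0.0069)) and RPS14 (0.40 (adjusted p = 0.0241)). None of these 4 was called higher after median-ratio scaling. Over the 79 genes the change had a Spearman rho of 0.579 with the length of the annotated transcript. The annotated transcripts of these 4 have 2117 to 2769 bases. Genes called lower include some with longer ones, such as RPL37 (7686 bases) and RPL14 (7072 bases). The annotated transcript need not be the form expressed in these cells.

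Transcripts of ribosomal proteins usually begin with a C and a run of pyrimidines, the 5′ terminal oligopyrimidine tract, through which mTOR signalling controls their translation. The starts of 3 genes with that tract that were lowest with R157S relative to R157K are shown, with 3 that were not called lower. They are shown to compare the tract, all 6 having been chosen for carrying it. Sequences are the sense strand of RefSeq promoters (GRCh38.p14), 10 bases before the annotated start and 20 from it, with the pyrimidine run from the start in capitals.
RPS21 (chr20:62387093-62387122, plus strand): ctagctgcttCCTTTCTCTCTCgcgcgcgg
RPL39 (chrX:119791611-119791640, minus strand): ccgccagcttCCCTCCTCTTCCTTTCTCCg
RPS27 (chr1:153990752-153990781, plus strand): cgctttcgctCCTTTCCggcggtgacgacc
RPS14 (chr5:150449720-150449749, minus strand): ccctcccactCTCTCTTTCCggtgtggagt
RPL22 (chr1:6199576-6199605, minus strand): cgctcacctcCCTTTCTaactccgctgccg
RPS6 (chr9:19380217-19380246, minus strand): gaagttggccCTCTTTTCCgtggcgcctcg
The first 3 changed by -1.997, -1.76 and -1.76, while RPS14 was at 0.40, RPL22 at 0.19 (adjusted p = 0.248) and RPS6 at 0.18 (adjusted p = 0.0909). The run of RPS27 is as long as that of RPL22, at 7 bases.

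A C followed by 4 pyrimidines (C or T) at the annotated start, read on the sense strand, was found in 43 of 63 ribosomal protein promoters matched in RefSeq (68.3%), against 4.04% of 27305 promoters. It was present in 39 of 52 ribosomal protein genes called lower (75%) and in 4 of 11 not called lower (36.4%). Outside the ribosomal proteins, 46 of 533 genes with this start were called lower (8.63%), against 7.3% of 10074 genes without it. The median relative change was 0.019 for genes with this start and 0.032 for genes without it.

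Respiratory chain and ATP synthase subunits encoded in the nucleus were lower alongside. Of 70 subunits, 51 were called lower (72.9%, beside 7.9% of all genes) and 6 higher. The median relative change was -1.14, and the change had a rho of 0.709 with coding length. NDUFA1, a small subunit of complex I, was at 167, 167 and 159 TPM with R157S, against 467, 624 and 502 TPM with R157K. COX7A2, a small subunit of cytochrome oxidase, was at 253, 268 and 269.7 TPM with R157S, against 686, 832 and 677 TPM with R157K. No R157S library reached the R157K range for either, and both were lower (NDUFA1 log2 -1.68, SE 0.14, adjusted p = 7.75e-06; COX7A2 log2 -1.46, SE 0.11, adjusted p = 4.44e-06). COX7C was lower as well (-1.24 (adjusted p = 9.22e-06)), and so were ATP5ME (-1.91 (adjusted p = 6.56e-05)) and ATP5MK (-1.84 (adjusted p = 7.59e-06)), small subunits of ATP synthase. The 6 called higher included large catalytic or core subunits: NDUFS1, the largest core subunit of complex I, was at 99.3, 98.5 and 94.4 TPM with R157S, against 49.9, 52.1 and 47.5 TPM with R157K (log2 0.95, SE 0.083, adjusted p = 8.96e-06). ATP5PB, of the peripheral stalk of ATP synthase, was also higher (1.53 (adjusted p = 1.09e-05)). SDHA, UQCRC2, ATP5F1A and ATP5F1B were the others, with changes of 0.30, 0.49, 0.37 and 0.24, and only NDUFS1 and ATP5PB were also called after median-ratio scaling. The SDHA call was lost with the replicate number as a block (adjusted p = 0.0505).

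The mitochondrial genome has 13 mRNA genes. All mitochondrially encoded genes together took 6.25% ± 0.117 of TPM with R157S and 6.70% ± 0.546 with R157K (exact two-sided permutation p = 0.3). Single genes differed in both directions. MT-ND3 was at 2371, 2164 and 2252 TPM with R157S, against 6843, 8738 and 7547 TPM with R157K. MT-ND4L averaged 4842 ± 219.5 TPM with R157S and 11730.0 ± 1065 TPM with R157K (SD, n = 3 each), and MT-ATP8 averaged 10210.0 ± 1119 TPM with R157S and 16810.0 ± 978 TPM with R157K. These 3, the shortest of the 13 at 207 to 346 bases, were lower, by log2 -1.76, SE 0.11, adjusted p = 2.16e-06 for MT-ND3, -1.27 (adjusted p = 0.00547) for MT-ND4L and -0.72 (adjusted p = 0.0367) for MT-ATP8. MT-ND4 was at 5358, 5305 and 5673 TPM with R157S, against 2742, 2971 and 2559.8 TPM with R157K, and MT-ATP6 at 3782, 3844 and 3956 TPM with R157S, against 1981, 2129 and 1830.4 TPM with R157K. MT-CO1 and MT-ND5 averaged 9522 and 2173 TPM with R157S, against 5044 and 1136 TPM with R157K. All 4 were higher in both fits, by 0.98 for MT-ND4, 0.97 for MT-ATP6, 0.92 for MT-CO1 and 0.94 for MT-ND5. MT-ATP8 and MT-ATP6 are carried by the same messenger RNA and overlap, as do MT-ND4L and MT-ND4, so that members of each of those pairs changed in opposite directions on 1 transcript; reads in the overlaps may have been divided between them and their values are uncertain. The 9 called higher (69.2%, beside 42.2% of all genes) include 5 that were not called after median-ratio scaling.

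**Figure D3:**
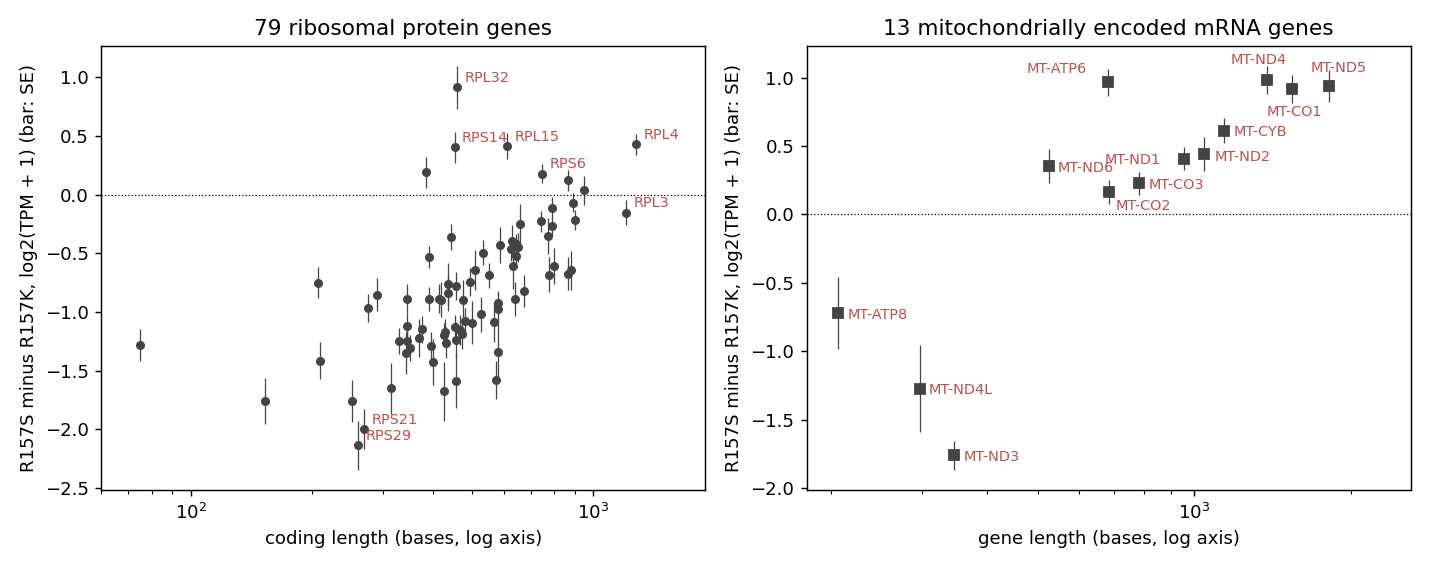
Change with R157S against R157K (y axes, log2 with its SE) plotted against length on log axes, for 79 ribosomal protein genes (left, longest annotated coding length) and 13 mitochondrially encoded mRNA genes (right, gene length). Genes with short coding parts mostly lie below 0 in both panels, and RPL4 and MT-ND5, the longest, lie above it.

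Length and base composition ran with the change across the whole table. Over 14220 genes with an annotated transcript, the change had a Spearman rho of 0.481 with transcript length and -0.483 with GC content. The best-ranked transcript of a gene was used, a principal one where marked, and the longest among equals. In the decile of shortest transcripts, 30.8% of genes were lower in both fits and 4.22% higher, with a median relative change of -0.52. In the decile of longest, 1.05% were lower and 35.2% higher, with a median of 0.30. The decile with the highest GC content had a median of -0.54 and the one with the lowest 0.24. Libraries of R157K also differed from each other along GC content, with rho of 0.617 for replicate 1 minus replicate 2 and -0.484 for replicate 2 minus replicate 3, while pairs of R157S libraries gave -0.244 to 0.117. Along length, the values within a group ran between -0.156 and 0.0747. After smooth trends on both properties had been removed within each library, 2166 genes were higher (15.2% of 14220) and 1904 lower (13.4%), and 1330 higher and 862 lower genes were called in all 3 fits. Library preparation included a size selection of cDNA, per the labels' protocols, and its part in these trends was not tested.

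**Figure D4:**
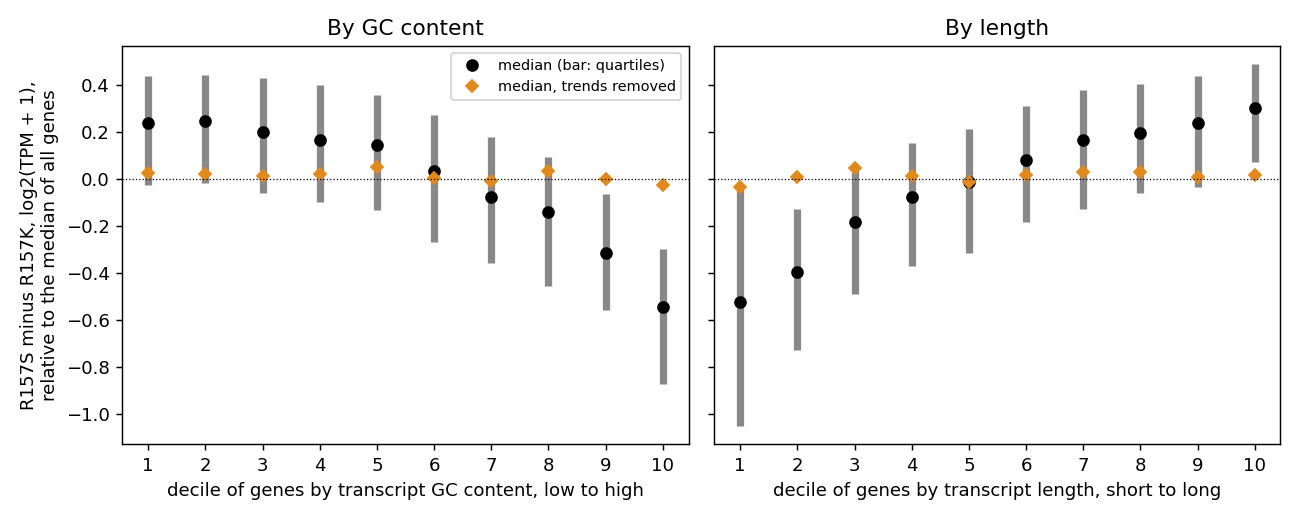
Median relative change with R157S against R157K (y axis, log2, grey bars give quartiles) in deciles of 14220 genes by transcript GC content (left) and transcript length (right). Medians run down to -0.54 at the highest GC content and up to 0.30 at the greatest length. Orange diamonds show medians once both trends were removed, which are near 0 by construction.

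Of the ribosomal protein genes, 30 of 32 in the small and 37 of 47 in the large subunit were called lower with these trends removed, and 29 and 36 of them also without that step. For respiratory chain genes it was 52 of 70, of which 47 were called lower in both settings. Their median changes in that fit were -0.94, -0.82 and -0.72. Medians of the length deciles lay between -0.033 and 0.049 there, near 0 by construction, as the trends had been fitted to the same genes. How far length and GC content account for the changes of these lists was not tested. MT-ND3, MT-ND4L and MT-ATP8 were also lower in that fit (adjusted p = 5.17e-07, 0.00365 and 0.00858). Of the genes called higher above, RPL4, RPL15, RPS14, SDHA, UQCRC2 and ATP5F1B were not called in it, and ATP5F1A was lower, at -0.25 (adjusted p = 0.00426). NDUFS1 was still higher in it, but by 0.26 (adjusted p = 0.0154) in place of 0.95. ATP5F1A was 1 of 11 list members that were higher as deposited and lower with the trends removed, and 0 went the other way.

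Small nucleolar RNA host genes, noncoding transcripts that often carry the same 5′ tract, were lower in 9 of 15 cases and higher in 1, against 1 higher and 12 lower after scaling and 1 higher and 11 lower with the trends removed, with a median relative change of -0.92. SNHG8 was at 34.4, 39.6 and 38.3 TPM with R157S, against 139, 176 and 114 TPM with R157K, with no overlap (log2 -1.89, SE 0.15, adjusted p = 5.37e-06). SNHG6 and SNHG5 were lower by -1.28 (adjusted p = 2.03e-05) and -1.21 (adjusted p = 2.16e-05). SNHG16 was the one that was higher, at 55.4, 58.9 and 72.1 TPM with R157S, against 30.3, 33.3 and 27.9 TPM with R157K (1.00 (adjusted p = 0.0002)). Of 19 tested histone genes, 4 were called lower (21.1%, beside 7.9% of all genes) and 1 higher, with a median of -0.64. Scaling gave 0 higher and 9 lower, and removal of the trends 0 higher and 5 lower. Among the lower were H1-10 (-0.93 (adjusted p = 0.00242)), H2BC12 (-0.82 (adjusted p = 0.00294)) and H2AC20 (-1.22 (adjusted p = 0.0102)), while H2BC21 was called higher (0.53 (adjusted p = 0.00438)) and lost that call after scaling. H2AC20 was at -0.73 (adjusted p = 0.165) and H2BC21 at 0.16 (adjusted p = 0.305) with the trends removed, and these calls were lost. How poly(A) selection caught histone transcripts was not tested.

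Translation factors differed in both directions. Of 38, 21 were called higher (55.3%, beside 42.2% of all genes) and 5 lower (13.2%, beside 7.9%), against 9 higher and 10 lower after scaling and 12 higher and 13 lower with the trends removed, with a median relative change of 0.03. EIF3H, a subunit of the initiation factor that loads ribosomes, was at 204, 228 and 229.9 TPM with R157S, against 74.6, 83.7 and 74.1 TPM with R157K. PABPC1, the poly(A) binding protein, which itself has a 5′ tract in human cells, was at 553, 633 and 621 TPM with R157S, against 279, 281 and 282 TPM with R157K. Both were higher with no overlap (EIF3H log2 1.497, SE 0.11, adjusted p = 3.94e-06; PABPC1 log2 1.098, SE 0.088, adjusted p = 6.19e-06), as were BZW1 (1.37 (adjusted p = 3.94e-06)) and EIF4G2 (1.08 (adjusted p = 5.39e-06)). The 5 lower ones were EEF1B2, EEF1D, EIF3K, EIF5A and EIF6, by -0.30 to -0.73. Of 31 proteasome subunits 7 were called higher (22.6%, beside 42.2% of all genes) and 8 lower (25.8%, beside 7.9%), with a median of -0.27. The split was 6 higher and 16 lower after scaling and 4 higher and 13 lower with the trends removed. PSMB2, a catalytic-ring subunit, was higher (1.07 (adjusted p = 1.24e-05)), as were the regulatory particle subunits PSMD11 (0.75 (adjusted p = 0.000101)), PSMC2 (0.69 (adjusted p = 0.000148)) and PSMD1 (0.73 (adjusted p = 0.000156)). These were named for their low adjusted p, and the 8 subunits called lower are not named here. PSMD11 was at 0.22 (adjusted p = 0.0687) and PSMC2 at 0.14 (adjusted p = 0.24) with the trends removed, and these calls were lost.

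The largest relative changes among protein-coding genes that averaged 5 TPM or more and had no overlap are shown in the plot of 24 genes. CCNY, a membrane-bound cyclin of WNT signalling, was at 79.9, 75.6 and 77.1 TPM with R157S, against 17.4, 18.8 and 19.2 TPM with R157K. SOAT1, which esterifies cholesterol for storage, was at 78.3, 75.3 and 86.3 TPM with R157S, against 20.3, 22.2 and 19.96 TPM with R157K. CREB1, the transcription factor of the cAMP pathway, was at 35.5, 44.7 and 32.6 TPM with R157S, against 10.6, 9.89 and 8.52 TPM with R157K. The lowest R157S library was more than 3 times the highest R157K library in each. Their changes were log2 2.02, SE 0.094, adjusted p = 6.76e-07 for CCNY, log2 1.89, SE 0.12, adjusted p = 3.11e-06 for SOAT1 and log2 1.85, SE 0.14, adjusted p = 4.61e-06 for CREB1. PLEKHA3, a Golgi lipid-binding protein, was higher (log2 2.196, SE 0.15, adjusted p = 3.49e-06), and so were TOX4 (1.89 (adjusted p = 2.16e-06)), the protease SPPL3 (1.78 (adjusted p = 2.35e-05)), the Golgi GTPase RAB30 (1.77 (adjusted p = 8.19e-06)) and the matrix protein ABI3BP (1.76 (adjusted p = 5.78e-06)).

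Some entries of this set may share reads with neighbours or copies and are uncertain. RPL36A-HNRNPH2, a read-through locus, was at 49.6, 175 and 154 TPM with R157S, against 14.5, 7.38 and 3.42 TPM with R157K, while RPL36A itself was at 147, 102 and 152 TPM with R157S, against 378, 527 and 383 TPM with R157K. Their sum with HNRNPH2 was 295, 362 and 389 TPM with R157S, against 474, 626 and 478 TPM with R157K, so that the sum was lower where the read-through entry was higher. PEDS1-UBE2V1, another read-through locus, was at 12.1, 14.8 and 19.8 TPM with R157S, against 2.67, 0 and 3.2 TPM with R157K, and its sum with PEDS1 and UBE2V1 was higher, at 242, 242 and 257 TPM with R157S, against 165, 175 and 162 TPM with R157K. The nuclear matrix gene MATR3 has 2 entries, which together gave 279, 262 and 242 TPM with R157S, against 124, 153 and 142 TPM with R157K. PCDHGC4, one of the gamma protocadherins that share exons, was higher (2.02 (adjusted p = 0.0139)). BOLA2B, with a near-identical copy in BOLA2, was lower (-2.85 (adjusted p = 0.00801)), and its call was lost once GC and length trends had been taken out (adjusted p = 0.0579). The sum of BOLA2B and BOLA2 was 41.5, 30.2 and 42.4 TPM with R157S, against 150.4, 175 and 161 TPM with R157K.

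Among the 12 lower genes, besides RPS29, RPS21, ATP5ME and ATP5MK, COPS9, a small subunit of the COP9 signalosome, was at 85.1, 73.9 and 74.7 TPM with R157S, against 287, 349 and 301 TPM with R157K. LSM7, of the ring that binds U6 RNA and decapping substrates, was at 64.6, 51.9 and 44.5 TPM with R157S, against 199, 221 and 180.4 TPM with R157K. ROMO1, a small protein of the mitochondrial inner membrane, was at 82.9, 87.2 and 74.9 TPM with R157S, against 281, 343 and 279.5 TPM with R157K. In each the R157K libraries lay at more than 2 times the R157S libraries (-1.99 (adjusted p = 7.75e-06) for COPS9, -1.89 (adjusted p = 6.50e-05) for LSM7 and -1.87 (adjusted p = 4.73e-06) for ROMO1). NUPR1, a small stress-induced chromatin protein, was lower at 3.81, 4.82 and 2.71 TPM with R157S, against 16.2, 12.6 and 20.9 TPM with R157K (log2 -1.88, SE 0.27, adjusted p = 0.00016). C4orf48 (-2.34 (adjusted p = 0.000117)), TMEM160 (-1.86 (adjusted p = 0.000982)) and the ligand-gated channel ZACN (-1.97 (adjusted p = 4.98e-05)) complete the set. The 12 lower genes had a median transcript length of 596 bases and GC content of 57.5%, and the 12 higher ones 4560 bases and 42.5%. The mean with R157F lay between those with R157S and R157K for 11 of the 12 higher and 12 of the 12 lower genes, and the mean with WT lay beyond R157S, away from R157K, for 8 and 11 of them. These positions are levels, with no test. The genes were chosen for a large gap between R157S and R157K, and that choice favours the mean of another group falling inside the gap. The share over all tested genes is not given here, so no conclusion is drawn from the counts for R157F.

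**Figure D5:**
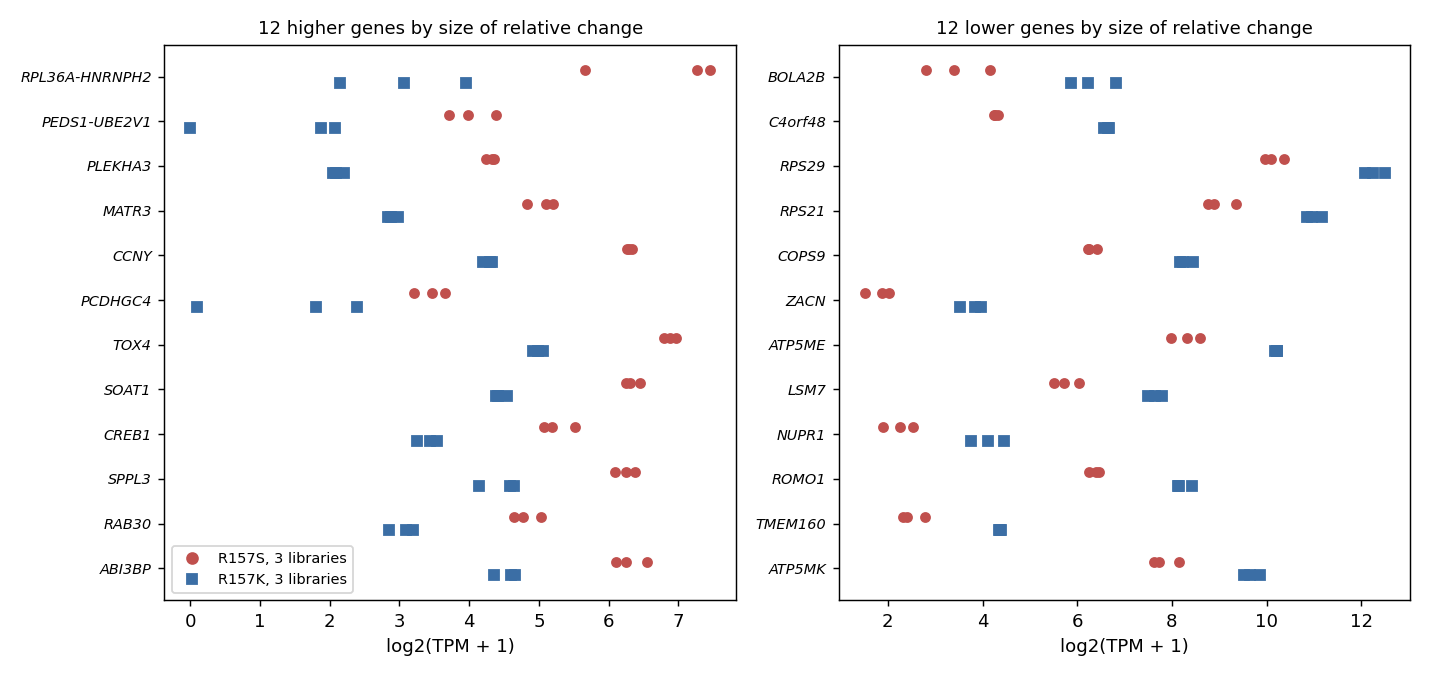
Values of each library as log2(TPM + 1) (x axes) for the 12 higher (left) and 12 lower (right) protein-coding genes with the largest relative change (y axes), R157S as red circles above R157K as blue squares. The groups do not overlap in any row, as the rule for choosing the genes requires, and 61.3% of all tested genes had no overlap.

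Transcription factors of the palate and its mesenchyme differed in both directions. Of 41 tested from a list of 55, 16 were called higher (39.0%, beside 42.2% of all genes, and 7 of them in both fits) and 7 lower (17.1%, beside 7.9%), against 7 higher and 13 lower after scaling and 6 higher and 9 lower with the trends removed, with a median relative change of -0.16. PRRX1, a homeobox factor of craniofacial mesenchyme, was at 724, 679.9 and 729 TPM with R157S, against 305, 334 and 342 TPM with R157K. Its paralogue PRRX2 was at 61.8, 70.9 and 61.8 TPM with R157S, against 140.0, 101 and 130.2 TPM with R157K. The pair lay on opposite sides without overlap, PRRX1 higher (log2 1.12, SE 0.095, adjusted p = 7.83e-06) and PRRX2 lower (log2 -0.91, SE 0.28, adjusted p = 0.0173), although the PRRX2 call did not hold with GC and length trends removed (adjusted p = 0.202). TWIST1, a factor of neural crest mesenchyme, was at 52.3, 69.9 and 59.8 TPM with R157S, against 103, 84.2 and 115 TPM with R157K, and TWIST2 at 99.2, 102 and 96.99 TPM with R157S, against 185, 141 and 205 TPM with R157K. Both were lower (-0.72 (adjusted p = 0.00232) and -0.81 (adjusted p = 0.00189)), also with the trends removed. FOXD1 (-1.06 (adjusted p = 0.000586)), FOXD2 (-0.55 (adjusted p = 0.031)), SOX11 (-0.43 (adjusted p = 0.0219)) and HIC1 (-0.68 (adjusted p = 0.00906)) were the other lower members. HIC1 was at -0.37 (adjusted p = 0.128) with the trends removed, and the call was lost. PBX3, a cofactor of homeobox proteins, was higher (1.17 (adjusted p = 1.87e-05)), as were ZEB1 (0.87 (adjusted p = 0.000126)) and ZEB2 (0.72 (adjusted p = 0.000101)), repressors of epithelial genes; the ZEB2 difference was 0.031 without the trends (adjusted p = 0.869).

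In the BMP pathway, ligands act through receptors and SMAD1, SMAD5 and SMAD4 on targets such as the ID genes. Of 27 members, 14 were called higher (51.9%, beside 42.2% of all genes, 7 in both fits) and 4 lower (14.8%, beside 7.9%). The split was 7 higher and 4 lower after scaling and 6 higher and 4 lower with the trends removed. SMAD4, the common mediator, was at 71.02, 72.6 and 83.6 TPM with R157S, against 29.1, 28.9 and 28.2 TPM with R157K, and SMAD5, a receptor-activated mediator, at 37.9, 47.9 and 46.6 TPM with R157S, against 14.3, 17.9 and 16.02 TPM with R157K. All R157S libraries were above all R157K libraries (log2 1.36, SE 0.096, adjusted p = 3.94e-06 for SMAD4; log2 1.401, SE 0.12, adjusted p = 7.75e-06 for SMAD5). SMURF2, a ubiquitin ligase that removes SMADs and receptors, was higher (1.27 (adjusted p = 1.16e-05)), as was FSTL1, a secreted BMP antagonist, at 1360.2, 1569.5 and 1512 TPM with R157S, against 558, 541 and 573 TPM with R157K (log2 1.41, SE 0.11, adjusted p = 4.73e-06). The 4 lower members were targets or inhibitors. ID1, a direct target, was at 107, 115 and 103 TPM with R157S, against 182, 159 and 200.4 TPM with R157K, and ID3 at 41.3, 47.5 and 40.02 TPM with R157S, against 67.2, 59.5 and 69.3 TPM with R157K. They were lower by -0.72 (adjusted p = 0.0257) and -0.60 (adjusted p = 0.00974), and ID1 missed the threshold with the trends removed (adjusted p = 0.0527). The inhibitory SMAD6 was lower (-0.50 (adjusted p = 0.0293)), and so was the secreted antagonist NOG (-0.45 (adjusted p = 0.0149)).

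TGF-beta pathway genes and targets were called higher in 15 of 25 cases (10 in both fits) and lower in 0, with a median relative change of 0.25. SMAD2, which carries the signal of TGF-beta receptors, was at 102, 102 and 97.3 TPM with R157S, against 41.9, 41.97 and 46.1 TPM with R157K (log2 1.196, SE 0.091, adjusted p = 4.73e-06). TAGLN, an actin-binding target of smooth muscle type, was at 314, 401 and 353 TPM with R157S, against 183, 132 and 126 TPM with R157K (log2 1.28, SE 0.14, adjusted p = 2.41e-05). THBS1, which activates latent TGF-beta, was higher (0.86 (adjusted p = 2.02e-05)), and SMAD3 was at 1.01 (adjusted p = 0.000197). The split was 10 higher and 0 lower after scaling and 10 higher and 1 lower with the trends removed.

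Matrix genes were called higher in 32 of 51 cases (62.7%, beside 42.2% of all genes, 22 in both fits) and lower in 3. Scaling gave 22 higher and 10 lower, and removal of the trends 21 higher and 10 lower. The list had a median of 0.25. SPARC, a collagen-binding glycoprotein, was at 3329.9, 4178 and 4081 TPM with R157S, against 1242, 1111 and 1073 TPM with R157K. FBN1, the main protein of microfibrils, was at 813, 892 and 890.3 TPM with R157S, against 372, 286 and 373 TPM with R157K. Each R157S library had more than 2 times the TPM of any R157K library, and both were higher (log2 1.75, SE 0.1, adjusted p = 1.37e-06 for SPARC; log2 1.34, SE 0.12, adjusted p = 9.35e-06 for FBN1). The proteoglycans VCAN and DCN were higher by 1.25 (adjusted p = 4.26e-06) and 1.22 (adjusted p = 4.54e-06), LUM by 1.21 (adjusted p = 9.74e-05) and fibronectin, FN1, by 0.95 (adjusted p = 0.000118). The lower ones were EMILIN1 (-0.80 (adjusted p = 0.0102)), COL5A3 (-0.58 (adjusted p = 0.0175)) and the protease inhibitor TIMP1 (-0.46 (adjusted p = 0.0236)). TIMP1 was at -0.14 (adjusted p = 0.264) with the trends removed, and the call was lost. COL1A1, the main collagen of bone and skin, did not pass at 1241, 1338 and 1112 TPM with R157S, against 1536, 1136 and 1459 TPM with R157K (-0.15 (adjusted p = 0.278)). Without R157K replicate 2, the library apart along GC content, 6 matrix genes were called lower in place of 3.

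The marker S100A6, a calcium-binding protein abundant in fibroblasts, was at 4079.8, 3990.2 and 4096 TPM with R157S, against 12733, 15536 and 12848 TPM with R157K. It was lower by log2 -1.75, SE 0.16, adjusted p = 1.20e-05. Of the 13 mesenchyme markers 7 were called higher (53.8%, beside 42.2% of all genes, 3 in both fits) and 2 lower. PDGFRA was among the higher ones (0.66 (adjusted p = 0.00017)). PDGFRA was at -0.0032 (adjusted p = 0.971) with the trends removed, and the call was lost. The summed level of the 13 was 26740 to 27290 TPM with R157S and 29960 to 31040 TPM with R157K. S100A6 alone differed by more than this sum, so the markers without it summed higher with R157S. Summed markers of endothelial cells were at 10.03 to 11.7 TPM with R157S and 4.97 to 5.18 TPM with R157K, and those of immune cells at 579 to 673 TPM with R157S and 278 to 371 TPM with R157K, nearly all of it CD68, a lysosomal protein that fibroblasts also make. Epithelial markers summed to 29.4 to 31.7 TPM with R157S and 30.4 to 38.9 TPM with R157K, neural ones to 198 to 214 TPM with R157S and 169.7 to 231 TPM with R157K, and muscle ones to 17.6 to 17.9 TPM with R157S and 12.7 to 14.3 TPM with R157K. Listed at 0 in every R157S and R157K library were 2 epithelial, 2 immune, 2 neural and 3 muscle markers. The part of other cell types in the results was not tested.

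In the WNT pathway 13 of 33 genes were called higher (39.4%, beside 42.2% of all genes, and 6 of them in both fits) and 1 lower, against 6 higher and 3 lower after scaling and 5 higher and 6 lower with the trends removed. DKK1, a secreted inhibitor, was at 216, 186 and 188 TPM with R157S, against 95.5, 104 and 106 TPM with R157K, without overlap (log2 0.94, SE 0.10, adjusted p = 2.68e-05). CTNNB1, which encodes beta-catenin, was higher (0.63 (adjusted p = 5.39e-05)), but its difference was 0.0025 once the trends were removed (adjusted p = 0.986). FZD8, a receptor, was the lower one, at 17.2, 14.02 and 11.5 TPM with R157S, against 30.5, 22.7 and 32.4 TPM with R157K (log2 -0.95, SE 0.20, adjusted p = 0.00172). In the hedgehog pathway 2 of 11 were called higher (18.2%, beside 42.2% of all genes) and 1 lower. Scaling gave 1 higher and 2 lower, and removal of the trends 0 higher and 2 lower. GLI3, a transcription factor, was higher (0.75 (adjusted p = 0.0003)), and the coreceptor GAS1 was lower (-0.48 (adjusted p = 0.0104)). GLI3 was at 0.19 (adjusted p = 0.152) with the trends removed, and the call was lost. In the FGF and ERK pathway 22 of 29 were called higher (75.9%, beside 42.2% of all genes, 9 in both fits) and 1 lower. The split was 9 higher and 2 lower after scaling and 11 higher and 4 lower with the trends removed. This list had a median relative change of 0.31. FGF5, a ligand, was at 214, 219.5 and 189.7 TPM with R157S, against 72.5, 81.7 and 75.02 TPM with R157K (log2 1.43, SE 0.13, adjusted p = 1.02e-05). DUSP6, a phosphatase induced by ERK, was higher (1.02 (adjusted p = 2.29e-05)), as was the ETS factor ETV1 (1.14 (adjusted p = 3.57e-05)). HRAS was lower, at 26.4, 23.9 and 23.6 TPM with R157S, against 49.2, 39.9 and 41.7 TPM with R157K (-0.80 (adjusted p = 0.00247)).

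Immediate early genes, the first to respond to serum and growth factors, were called higher in 8 of 25 cases and lower in 5, with 1 higher and 5 lower in both fits, against 1 higher and 6 lower after scaling and 5 higher and 4 lower with the trends removed. IER2 was at 87.6, 76.6 and 73.7 TPM with R157S, against 167, 131 and 169.6 TPM with R157K, and IER5 at 30.3, 28.3 and 25.2 TPM with R157S, against 62.1, 51.5 and 59.6 TPM with R157K. JUNB, an AP-1 subunit, was at 73.1, 76.05 and 61.99 TPM with R157S, against 142, 103 and 146 TPM with R157K. R157S libraries were below R157K libraries for all of these (-0.96 (adjusted p = 0.000563) for IER2, -1.02 (adjusted p = 8.27e-05) for IER5 and -0.87 (adjusted p = 0.00519) for JUNB). JUN and KLF2 were the other lower ones (-0.64 (adjusted p = 0.0169) and -0.55 (adjusted p = 0.0373)), and KLF10, a TGF-beta inducible factor, was higher (0.91 (adjusted p = 2.97e-05)). KLF2 was at -0.30 (adjusted p = 0.135) with the trends removed, and the call was lost.

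Interferon response genes were called higher in 21 of 39 cases (53.8%, beside 42.2% of all genes, 8 in both fits). They were called lower in 8 (20.5%, beside 7.9%), all of them in both fits. Scaling gave 8 higher and 11 lower, and removal of the trends 9 higher and 8 lower. ISG15, a small ubiquitin-like modifier, was at 1631, 1536 and 1393 TPM with R157S, against 3822, 3965 and 3733 TPM with R157K, and IFI27 at 1988, 1699 and 1668 TPM with R157S, against 4441, 4760.0 and 4649 TPM with R157K. Both were lower (log2 -1.34, SE 0.22, adjusted p = 0.000354 for ISG15; log2 -1.38, SE 0.19, adjusted p = 0.000146 for IFI27), with IFI6 (-0.87 (adjusted p = 7.96e-05)), the membrane proteins IFITM1 (-0.74 (adjusted p = 0.0262)), IFITM3 (-0.60 (adjusted p = 0.00829)) and BST2 (-0.67 (adjusted p = 0.00762)), IFI35 and IRF7. IFITM1 was at -0.61 (adjusted p = 0.0586) with the trends removed, and the call was lost. EIF2AK2, the kinase PKR, was at 147, 144 and 148 TPM with R157S, against 53.1, 66.8 and 61.4 TPM with R157K. It was higher (log2 1.27, SE 0.16, adjusted p = 7.51e-05), as were OAS2 (0.89 (adjusted p = 8.52e-06)) and CMPK2 (0.75 (adjusted p = 3.62e-05)). The 8 lower genes have annotated transcripts of 711 to 2051 bases. In the NF-kB list 10 of 27 were called higher (37.0%, beside 42.2% of all genes, and 2 of them in both fits) and 3 lower, against 2 higher and 10 lower after scaling and 4 higher and 4 lower with the trends removed. NFKB1 was higher (0.72 (adjusted p = 6.59e-05)), while the chemokines CXCL2 (-0.48 (adjusted p = 0.0268)) and CXCL3 (-0.40 (adjusted p = 0.0279)) and the inhibitor NFKBIB (-0.70 (adjusted p = 0.0288)) were lower. NFKBIB was at -0.19 (adjusted p = 0.299) with the trends removed, and the call was lost.

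Chaperones of the heat shock response were called higher in 22 of 31 cases (71.0%, beside 42.2% of all genes, 7 in both fits). Another 3 were called lower. Scaling gave 7 higher and 4 lower, and removal of the trends 9 higher and 5 lower. CCT5, a subunit of the chaperonin that folds actin and tubulin, was at 312, 315 and 313 TPM with R157S, against 156, 156.6 and 141 TPM with R157K (log2 1.05, SE 0.078, adjusted p = 4.61e-06), and HSPH1 was higher (0.88 (adjusted p = 4.46e-05)). The small chaperones HSPB1 (-1.22 (adjusted p = 0.00503)) and HSPE1 (-1.14 (adjusted p = 4.82e-05)) and the inducible HSPA1A (-0.58 (adjusted p = 0.0217)), which may share reads with a near-identical copy, were lower. In the unfolded protein and integrated stress response 21 of 35 were called higher (6 in both fits) and 4 lower (2 without R157K replicate 2), against 6 higher and 6 lower after scaling and 5 higher and 3 lower with the trends removed. SYVN1, a ubiquitin ligase of the endoplasmic reticulum, was higher (1.35 (adjusted p = 2.86e-05)), as were the chaperone CANX (0.89 (adjusted p = 1.40e-05)) and the sensor ATF6 (0.97 (adjusted p = 1.69e-05)). CEBPB, a stress and cytokine transcription factor, was at 45.5, 39.9 and 34.2 TPM with R157S, against 134, 78.8 and 128 TPM with R157K and lower (log2 -1.46, SE 0.24, adjusted p = 0.000347), with DDIT3 (-0.52 (adjusted p = 0.0266)), MANF (-0.40 (adjusted p = 0.00584)) and SDF2L1 (-0.65 (adjusted p = 0.0465)), whose call was also lost with the replicate block (adjusted p = 0.0632). DDIT3 was at -0.45 (adjusted p = 0.0559) and SDF2L1 at -0.029 (adjusted p = 0.909) with the trends removed, and these calls were lost. Of p53 targets 12 of 26 were called higher (46.2%, beside 42.2% of all genes, 2 in both fits) and 4 lower. With R157K replicate 2 left out, 7 were called higher. The split was 2 higher and 8 lower after scaling and 2 higher and 5 lower with the trends removed. FAS (0.74 (adjusted p = 7.25e-05)) and TIGAR (1.11 (adjusted p = 0.000106)) were higher, and BAX (-0.69 (adjusted p = 0.0066)), BBC3 (-0.66 (adjusted p = 0.0121)), PHLDA3 (-0.64 (adjusted p = 0.0256)) and GADD45A (-0.40 (adjusted p = 0.0181)) were lower. BAX was at -0.26 (adjusted p = 0.18) and BBC3 at -0.15 (adjusted p = 0.464) with the trends removed, and these calls were lost.

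Cell cycle genes were called higher in 61.8% (G1/S and replication) and 62.5% (G2/M) of cases, beside 42.2% of all genes. Fewer were higher in both fits, as for all genes (15.3%). Of 34 G1/S and replication genes 21 were called higher (6 in both fits) and 0 lower, against 6 higher and 3 lower after scaling and 5 higher and 1 lower with the trends removed. CDC6, which loads the replicative helicase, was at 51.02, 45.7 and 46.7 TPM with R157S, against 24.5, 25 and 27 TPM with R157K (log2 0.88, SE 0.094, adjusted p = 2.54e-05). Of 40 G2/M genes 25 were called higher (8 in both fits) and 1, UBE2C, lower (-0.36 (adjusted p = 0.0319)), a call lost without R157K replicate 2. UBE2C was at -0.24 (adjusted p = 0.0901) with the trends removed, and the call was lost. The G2/M split was 8 higher and 4 lower after scaling and 6 higher and 3 lower with the trends removed. TPX2, a spindle assembly factor, was at 122, 115 and 112 TPM with R157S, against 61.97, 58.99 and 62.2 TPM with R157K (log2 0.92, SE 0.078, adjusted p = 7.83e-06), and KIF23 and MKI67 were higher by 1.04 (adjusted p = 2.90e-05) and 0.91 (adjusted p = 7.17e-05). Glycolysis and hypoxia genes were called higher in 17 of 34 cases (9 in both fits) and lower in 1, SLC2A1 (-0.54 (adjusted p = 0.0217)), whose groups overlapped, against 9 higher and 6 lower after scaling and 13 higher and 3 lower with the trends removed. PGK1 (1.01 (adjusted p = 1.72e-05)), LDHA (0.90 (adjusted p = 2.87e-05)) and PDK1 (1.31 (adjusted p = 2.43e-05)) were higher, with the hypoxia factor EPAS1 (1.09 (adjusted p = 2.35e-05)). Of 30 cholesterol genes 17 were called higher (56.7%, beside 42.2% of all genes, 3 in both fits) and 2 lower. The 2 lower ones were the mevalonate pathway enzymes PMVK (-0.60 (adjusted p = 0.0046)) and MVD (-0.55 (adjusted p = 0.033)). The split was 3 higher and 7 lower after scaling and 7 higher and 1 lower with the trends removed. PMVK was at -0.33 (adjusted p = 0.0763) and MVD at -0.22 (adjusted p = 0.0888) with the trends removed, and these calls were lost.

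Of 14 arginine methyltransferases and partners, 8 were called higher (57.1%, beside 42.2% of all genes, 3 in both fits) and 1, PRMT1, lower. Scaling gave 3 higher and 2 lower, and removal of the trends 2 higher and 3 lower. WDR77, the partner of PRMT5, was higher (0.72 (adjusted p = 0.0004)), as were RIOK1 (0.70 (adjusted p = 0.00017)) and PRMT9 (0.80 (adjusted p = 0.000605)). RIOK1 was at 0.19 (adjusted p = 0.0882) and PRMT9 at 0.22 (adjusted p = 0.158) with the trends removed, and these calls were lost. RNA granule and condensate proteins were called higher in 29 of 41 cases (70.7%, beside 42.2% of all genes, 9 in both fits). Another 3 were called lower. The split was 9 higher and 6 lower after scaling and 7 higher and 11 lower with the trends removed. CAPRIN1, a stress granule protein, was at 302, 307 and 326 TPM with R157S, against 129, 139 and 135 TPM with R157K (log2 1.21, SE 0.14, adjusted p = 4.20e-05), and ATXN2 was higher (1.19 (adjusted p = 1.37e-05)), as were PATL1 (0.96 (adjusted p = 6.41e-06)) and SON (1.00 (adjusted p = 1.43e-05)). FBL, the nucleolar methyltransferase, was at 138, 142 and 131 TPM with R157S, against 242, 259.5 and 222 TPM with R157K and lower (-0.81 (adjusted p = 0.000132)), as was the RNA-binding protein HNRNPA0 (-0.84 (adjusted p = 8.66e-05)). Mediator and coactivator genes were called higher in 27 of 46 cases (58.7%, beside 42.2% of all genes, 18 in both fits). Another 2 were called lower. Scaling gave 18 higher and 7 lower, and removal of the trends 12 higher and 6 lower. EP300, a histone acetyltransferase, was at 57.4, 56.8 and 57.3 TPM with R157S, against 26.5, 20.6 and 26.2 TPM with R157K (log2 1.203, SE 0.10, adjusted p = 8.19e-06), and MED13L (0.97 (adjusted p = 3.16e-05)), NCOA1 (1.01 (adjusted p = 3.45e-05)) and BRD2 (0.83 (adjusted p = 4.11e-05)) were higher, while MED10 (-0.30 (adjusted p = 0.03)) and MED30 (-0.63 (adjusted p = 0.00982)) were lower. Among 8 nuclear long noncoding RNAs 2 were called higher (1 without R157K replicate 2), of which TUG1 held in both fits (1.18 (adjusted p = 2.41e-05)), against 1 higher and 2 lower after scaling and 1 higher and 4 lower with the trends removed. Among 5 bone and cartilage genes 2 were called higher (40.0%, beside 42.2% of all genes) and 0 lower. Scaling gave 0 higher and 1 lower, and removal of the trends 0 higher and 1 lower.

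The core of the homeobox motif that MSX1 prefers, TAATTG or on the other strand CAATTA, was looked for in promoters of 300 bases, 250 before the start to 50 after. It was found in 76 of 1760 promoters of genes higher in both fits (4.32%), in 30 of 833 of genes lower in both (3.6%) and in 450 of 10670 of tested genes (4.22%), against 7.58% of all 27305 promoters. A match describes letters in this window and not binding, and sites farther away were not examined.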

How the data were processed

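The series holds 1 table of TPM (transcript abundance as a share of the library total) per gene and library, deposited by the authors for 12 libraries. The submitters' processing notes list RSEM and give no version. For aligner, genome build, annotation and strand setting nothing was given in the sources used here, and overlapping and antisense genes are uncertain. TPM keep no depth: each library summed to between 999999.03 and 1000000.89, depth is unknown and no counting interval was computed. All columns were mapped to samples by the labels, and 0 were left over. No pair of libraries held identical values.

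Genes reaching 1 TPM in 3 or more libraries were analysed as log2(TPM + 1), which understates changes of low genes. Limma 3.58.1 (R 4.3.3) was run on the 12 libraries with a coefficient for each plasmid (8 residual degrees of freedom, moderation following mean expression), contrast R157S minus R157K, with Benjamini-Hochberg adjustment over 14718 genes and a threshold of 0.05. Every adjusted p is limma's. The script was tested on simulated data. Single values were compared by exact permutation over 3 against 3 libraries, which cannot give a p under 0.1. Alternatives were a pseudocount of 0.1, no filter, median-ratio scaling, rescaling without ribosomal protein and mitochondrial genes, removal of GC and length trends, the replicate block, the 2 groups alone and each library left out. Pandas, scipy and matplotlib were used for summaries and figures. GC content, length and coding length come from GENCODE 29 (GRCh38; the authors may have used another annotation), and promoters from RefSeq (GRCh38.p14). Of the tested genes, 10670 matched a promoter.

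The labels give a batch tag equal to the replicate number, so the numbers pair libraries by the labels. Deviations of same-numbered R157S and R157K libraries from their group means correlated at -0.128, -0.0555 and -0.086.

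Named genes are MSX1, PRMT1, the 12 higher and 12 lower protein-coding genes with the largest relative change (called in both fits, mean of at least 5 TPM, no overlap) and up to 4 members of each list called in both fits with the lowest adjusted p. Other members, mostly the few called against a list's main direction, were chosen after their values were seen. A few genes chosen this way are left out of the text and not reported here. The gene lists and the comparison were chosen with earlier results of these data known.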

Additional observations from a re-analysis of the deposited data

How the results depend on the processing

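Genes higher with R157S numbered 6209, and 2251 after median-ratio scaling, 2166 with GC and length trends removed, 2116 with those trends removed and the replicate block together, and 643 when a change of at least 1 was also asked for. Genes lower numbered 1162, and 2575, 1904, 1839 and 326 under the same settings; the cause was not tested. With 1 library left out, higher genes ranged from 5361 to 5797 and lower genes from 904 to 1202. With the replicate block, which pairs libraries by number, the counts were 6176 and 1179, and the block changed no call of MSX1, PRMT1 or the other 131 genes named by rule, while those of SDHA and SDF2L1, named after their values were seen, were lost with it. With 1 library left out, the MSX1 difference ranged from -0.45 (without R157S replicate 1) to 0.041 (without R157S replicate 3, where its sign turned), the PRMT1 difference from -0.53 to -0.43, the difference in ribosomal protein share from -6.47 to -5.29 percentage points and that in mitochondrial share from -0.67 to -0.15. With no filter PRMT1 was at -0.48 with an adjusted p of 0.0541, and with TPM rescaled without ribosomal protein and mitochondrial genes at -0.59. As shares of the total without the other group of genes, the ribosomal difference was -6.501 points and the mitochondrial one -0.985 (exact permutation p = 0.1 for each). For the 131 named genes, 1759 of the recomputed values kept direction and call, 62 lost the call and 0 reversed; 18 of the lost calls came with GC and length trends removed and 24 with those trends removed and the replicate block together. Differences were smaller by over 1.5 times for 85 of the 131 with the trends removed and for 55 after median-ratio scaling, and larger by over 1.5 times for 1 and 7. Counts of list members without R157K replicate 2, a setting chosen after seeing the data, moved by over 1.5 times for 6 counts, among them lower G2/M genes (0 in place of 1), higher nuclear long noncoding RNAs (1 in place of 2), lower stress response genes (2 in place of 4) and higher small subunit genes (2 in place of 1). Values are TPM without depth, so counting error at low levels is unknown.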

Other observations

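Biotypes outside protein-coding genes differed in their calls. Of 425 tested lincRNA genes, 40 were lower with R157S in both fits (9.41%) and 13 higher (3.06%), with a median relative change of -0.21. Of 620 antisense genes, 57 were lower (9.19%) and 26 higher (4.19%), with a median of -0.22, and these are uncertain because the strand setting is not given. Of 200 processed pseudogenes, 15 were lower (7.5%) and 22 higher (11%). The share of library TPM in processed pseudogenes was 0.426% ± 0.0364 with R157S and 0.571% ± 0.0256 with R157K (SD, n = 3 each; exact two-sided permutation p = 0.1). Protein-coding genes were lower in 7.76% and higher in 17.1% of 12443 cases.

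Genes that are not ribosomal proteins and begin with a pyrimidine tract were set beside other genes of like length, as a description with no test. Among genes with transcripts shorter than the median, 42 of 276 with the tract were called lower (15.2%), against 13.5% of 4989 without it. Among longer ones it was 4 of 257 (1.56%), against 1.19% of 5059.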
